A study of Homo sapiens with 10 samples.

Results

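Metallothioneins are small cysteine-rich proteins that hold zinc, copper and cadmium ions, and they are known to be switched on in intestinal epithelium when metals, oxidants or glucocorticoids reach the cell. The transcription factor MTF1 senses zinc and binds short DNA motifs called metal response elements in the promoters of these genes. The genes described here are 7 metallothionein genes (MT2A, MT1F, MT1X, MT1E, MT1G, MT1H and MT1M) and MTF1, found in the tables by gene symbol from a set of 8 names. All 8 were among the 60554 genes of the transcript tables, and 2 of them, MT2A and MTF1, passed the expression filter that left 11640 genes for testing.

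RNA was sequenced from Caco-2, a human colon carcinoma line with features of enterocytes. All cells came from a single puromycin-selected stable clone that expressed dCas9-KRAB, a Cas9 that binds DNA without cutting it and carries a repressor domain. The clone was then infected with a hygromycin-resistance lentivirus carrying guide g1 (3 libraries) or g2 (2 libraries) against the long noncoding RNA LHFPL3-AS2, or an empty guide plasmid (gCtl, 5 libraries), so the controls share the clone, dCas9-KRAB and both selections. The labels do not say whether libraries of a group came from separate cultures, so p-values measure the spread between libraries, which may be technical. The totals were 3838803 to 5674360 estimated counts per library in gCtl and 4649985 to 8730468 with a guide, so 1 count corresponded to 0.115 to 0.261 RPM (counts scaled to a library total of 1000000). Libraries with the label g1 or g2 are called guide-labelled below. Replicate numbers were assigned here in sample order within each group, and the same number in different groups does not mark matched libraries.

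In these counts, the RNA that the guides target did not mark the groups, whereas the paper reported its depletion with both guides by qPCR, normalized to GAPDH. The RNA held only 4.39 to 44.03 estimated counts per library. LHFPL3-AS2 measured 1.73, 0.84, 3.73, 1.73 and 3.12 RPM in gCtl, 3.07, 3.95 and 2.03 RPM in the g1-labelled libraries, and 2.16 and 6.01 RPM in the g2-labelled ones. The groups overlapped, and the fit of genes of all biotypes gave a log2 fold change of 0.61 (SE 0.42, adjusted p = 0.381, edgeR) for both guides together, so every direction below rests on the labels. Epithelial markers were present in every library (10 of 14 above 3 RPM in all), including EPCAM and VIL1, while SI, ALPI and CDX1 were close to 0. Summed fibroblast markers reached at most 10.9 RPM in gCtl and 10.8 RPM in the guide-labelled libraries, summed endothelial markers 3.66 and 10.1 RPM, and summed leukocyte markers, mostly LYZ, 24.01 and 29.7 RPM. Summed proliferation markers ranged from 1774 to 2612 RPM in gCtl and from 1043 to 2647 RPM with a guide.

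The 7 metallothionein genes lie in 1 cluster of 76.0 kb on chromosome 16 (GRCh38), which runs from MT2A at chr16:56608199-56609497 to MT1X at chr16:56682424-56684196, and MT1G is the only member of the cluster on the minus strand. MTF1 lies at chr1:37809567-37859620 on the minus strand. The promoters of 4 members were in the RefSeq table used here (MT2A, MT1X, MT1H and MTF1, GRCh38.p14), each covering 250 bases before and 50 bases after the RefSeq start, which need not be the first base of the annotated gene. They were searched on both strands for the core of the metal response element, spelled TGCACNC or TGCGCNC, and the 3 metallothionein promoters are printed because of the number of matches they hold. Capitals mark the matches, none of which overlap, and a match on the minus strand reads in its reverse complement.
MT2A promoter, chr16:56608334-56608633, plus strand: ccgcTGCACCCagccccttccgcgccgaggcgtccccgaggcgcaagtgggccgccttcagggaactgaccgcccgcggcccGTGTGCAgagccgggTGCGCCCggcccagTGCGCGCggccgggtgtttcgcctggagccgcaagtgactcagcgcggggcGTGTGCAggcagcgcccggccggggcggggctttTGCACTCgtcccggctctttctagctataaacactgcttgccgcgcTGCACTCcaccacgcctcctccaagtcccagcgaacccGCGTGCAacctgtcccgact
MT1X promoter, chr16:56682220-56682519, plus strand: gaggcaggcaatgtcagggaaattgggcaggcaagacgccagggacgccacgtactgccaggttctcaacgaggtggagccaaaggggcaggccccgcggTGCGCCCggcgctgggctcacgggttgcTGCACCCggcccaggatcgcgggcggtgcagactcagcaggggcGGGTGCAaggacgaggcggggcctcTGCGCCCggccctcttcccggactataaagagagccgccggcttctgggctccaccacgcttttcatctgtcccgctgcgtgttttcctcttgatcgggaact
MT1H promoter, chr16:56669564-56669863, plus strand: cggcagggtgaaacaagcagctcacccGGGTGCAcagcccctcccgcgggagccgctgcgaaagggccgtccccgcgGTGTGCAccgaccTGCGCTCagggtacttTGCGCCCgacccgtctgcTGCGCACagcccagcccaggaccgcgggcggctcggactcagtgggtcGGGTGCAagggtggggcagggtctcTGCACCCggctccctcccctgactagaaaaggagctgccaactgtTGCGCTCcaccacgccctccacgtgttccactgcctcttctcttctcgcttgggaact

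MT2A held 8 matches (6 of TGCACNC and 2 of TGCGCNC), of which 1, at positions 31 to 37, lies downstream of the start. MT1H held 8 matches, 4 of each spelling, and MT1X held 4, 2 of each. All 3 promoters held a match at nearly the same place, at positions -54 to -48 in MT2A and -53 to -47 in MT1X and MT1H. The MTF1 promoter held 0 matches to these letters. Of all 35116 promoters in the table, 29.6% held at least 1 match and 0.6% held at least 4. TATAAA, the letters of the TATA box, began at position -29 in MT2A and -30 in MT1X and was in neither the MT1H nor the MTF1 window, beside 7.3% of all promoters with it anywhere in the window. The matches are letters in the sequence and say nothing of binding in these cells.

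MT2A, the most widely expressed metallothionein, was the most abundant of the 7 in all groups. It measured 15.1, 6.52, 7.57, 7.75 and 3.35 RPM in gCtl, from 19 to 58 counts per library. It measured 3.82, 4.30 and 3.55 RPM in the g1-labelled libraries, and 6.85 and 0.96 RPM in the g2-labelled ones, the last from 7 counts. In RPM, all 5 guide-labelled libraries lay below the gCtl median and 1 of them lay below the lowest gCtl library, so the groups overlapped. In CPM with TMM scaling, as used in the fit, g2 replicate 1 (11.5 CPM) was above the gCtl median, which was gCtl replicate 3 (11.1 CPM). The gCtl mean was 8.06 RPM ± 4.32 (SD, n = 5), and the means were 3.89 RPM ± 0.38 (SD, n = 3) with g1 and 3.90 RPM ± 4.17 (SD, n = 2) with g2. The spread within g2 was thus as large as its mean, whereas the g1 libraries were close together.

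MT2A was lower by value with both guides, and in no comparison did it pass the threshold (a fold change of 1.5 or more with an adjusted p no higher than 0.05). For both guides pooled, its log2 fold change against gCtl was -0.94 (SE 0.43, unadjusted p = 0.0454, adjusted p = 0.125, edgeR's quasi-likelihood test). The log2 fold change was -0.997 (SE 0.50, adjusted p = 0.175, edgeR) for g1 and -0.85 (SE 0.58, adjusted p = 0.290, edgeR) for g2, and both comparisons used the same gCtl libraries. The guides differed from each other by 0.15 on the log2 scale (SE 0.63, adjusted p = 0.923, edgeR), an error that leaves room for sizeable differences in either direction.

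The value of MT2A rested on a few libraries. Without gCtl replicate 1, the library with the highest level and the lowest total, the log2 fold change was -0.60, and without g2 replicate 1 it was -1.30 (adjusted p = 0.0389, edgeR), past the threshold. For g2 alone, it was -2.89 (adjusted p = 0.0108, edgeR) without replicate 1 and 0.004 without replicate 2, each from 1 remaining g2 library that is taken to vary like the others. Removing a trend of fold change on transcript length gave -0.46 (adjusted p = 0.421, edgeR). Relative to GAPDH the value turned to 0.81, because GAPDH itself stood at 332 RPM ± 109 (SD, n = 5) in gCtl and, without overlap, at 98.96 RPM ± 23.98 (SD, n = 5) with a guide.

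**Figure D1:**
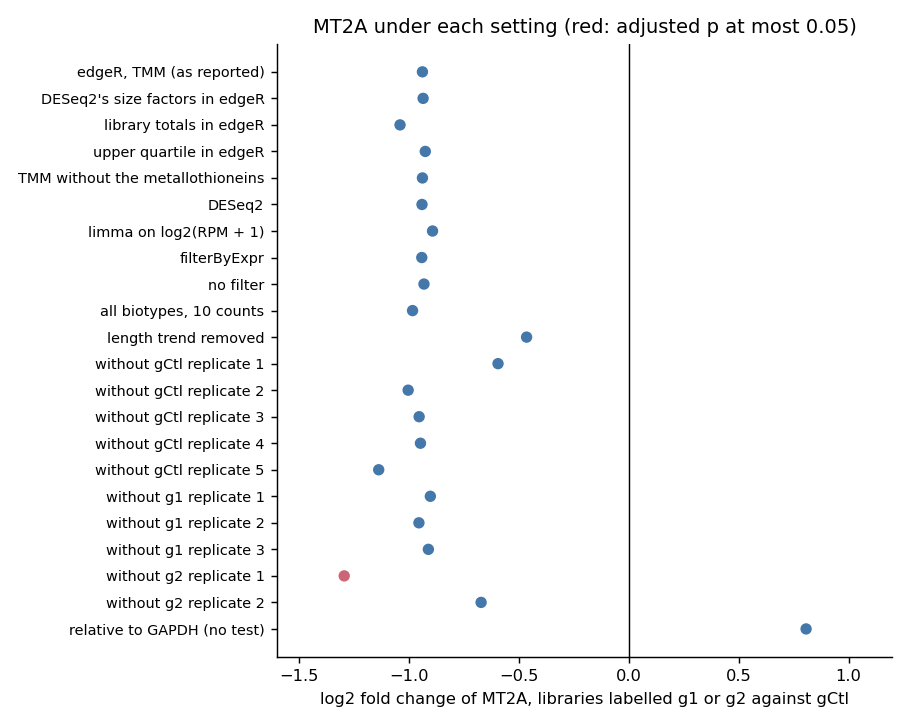
Log2 fold change of MT2A for the guide-labelled libraries against gCtl (horizontal axis) under each processing setting (vertical axis), with red for an adjusted p of at most 0.05. The points lie between -1.30 and -0.46 apart from the ratio to GAPDH, at 0.81, which has no test, and 1 point, without g2 replicate 1, is red.

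The counts of MT2A fell on 2 of its annotated transcripts, which in their last 200 bases share equally many 31-base words with other genes. In total, 213 estimated counts were assigned to the 416-base processed transcript and 92.8 to the 786-base coding transcript. The coding transcript received 18.2, 8.40, 19.9, 20.0 and 3.31 counts in gCtl, which together are 69.8 of 184. It received 0, 1.62 and 4.78 counts in the g1-labelled libraries, together 6.40 of 73, and 16.6 and 0 counts in the g2-labelled ones. In this estimate the g1-labelled libraries and g2 replicate 2 were thus below gCtl replicates 1 to 4, while g2 replicate 1 was within the gCtl range. The groups overlapped, since gCtl replicate 5, at 3.31 counts, was below g1 replicate 3, at 4.78. These counts are not scaled to the library totals, which differed. Kallisto divides reads that fit both transcripts by estimation, and reads start near the polyA tail in these libraries, so no test was made of this division.

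MT1F, another inducible metallothionein, was the next most abundant. It measured 6.25, 2.30, 2.34, 2.0 and 1.06 RPM in gCtl, from 6 to 24 counts per library. In the libraries labelled g1 it measured 2.78, 2.37 and 1.26 RPM, and in the g2-labelled ones 2.12 and 0.96 RPM. The groups overlapped, with gCtl replicate 1 far above every other library. In gCtl the mean was 2.79 RPM ± 2.003 (SD, n = 5), and with a guide it was 1.90 RPM ± 0.77 (SD, n = 5). MT1F was above the minimum of 3 RPM in 1 library and so was not tested with the main set, and on log2(RPM + 1) its mean difference was -0.30 (exact two-sided permutation test, p = 0.508). Fitted with the 23413 genes of all biotypes that held at least 10 counts in total, its log2 fold change was -0.51 (SE 0.47, adjusted p = 0.533, edgeR). The longer coding transcript of MT1F, of 690 bases, held 29.4 of the 63 counts in gCtl, 1.72 of 38 with g1 and 3.49 of 20 with g2. This division is the same kind of estimate as for MT2A. By library the groups overlapped, since gCtl replicates 4 and 5 held 1.61 and 1.77 counts, g1 replicate 3 held 1.72 and g2 replicate 1 held 3.49.

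MT1X and MT1E were at the limit of detection. MT1X, which like MT2A responds to zinc, held 6, 1, 1, 3 and 0 counts in gCtl, 1, 0 and 2 in the g1-labelled libraries, and 3 and 0 in the g2-labelled ones. MT1E held 0, 1, 2, 2 and 1 counts in gCtl, 0, 1 and 6 in the g1-labelled libraries, and 8 and 3 in the g2-labelled ones. Of the 11 MT1X counts in gCtl, 6 came from replicate 1, and the highest MT1E counts came from g1 replicate 3 and g2 replicate 1. The mean difference on log2(RPM + 1) was -0.31 for MT1X (exact two-sided permutation test, p = 0.318) and 0.24 for MT1E (exact two-sided permutation test, p = 0.325), a scale that understates changes of such low genes. In the fit of all biotypes the log2 fold changes were -1.30 (SE 1.07, adjusted p = 0.474, edgeR) for MT1X and 1.13 (SE 0.94, adjusted p = 0.478, edgeR) for MT1E. The signs of the pair differed, and neither value exceeded its error by enough to pass the threshold.

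MT1G, MT1H and MT1M were close to absent. MT1G held 3 counts over the 5 gCtl libraries, 3 over the g1-labelled libraries and 4 over the g2-labelled ones, all of the last from g2 replicate 1. MT1H held 1 count in gCtl replicate 2, 3 counts in g2 replicate 1 and 0 in the remaining libraries. MT1M held 0 counts in all 5 gCtl libraries, which allows a level of up to 0.124 RPM over their 24276953 counts, and 1 count in each of g1 replicate 1, g1 replicate 3 and g2 replicate 1. The mean differences on log2(RPM + 1) were 0.13, 0.06 and 0.12 (exact two-sided permutation tests, p = 0.603, 1 and 0.167), and MT1G had a log2 fold change of 0.83 in the fit of all biotypes (SE 1.23, adjusted p = 0.721, edgeR). No difference was detectable at this depth in any of the 3 genes, and the limit given for MT1M covers counting error only. The permutation p-values are those of 6 tests, unadjusted, and the smallest that 5 against 5 libraries can give is 0.00794, where libraries are not tied. Libraries tied at 0 raise that limit. MT1M held counts in 3 libraries, all guide-labelled, so its p = 0.167 (exact two-sided permutation test) was the lowest it could take. MT1H, with counts in 2 libraries, could not reach 0.05 either, so these 2 tests could not detect a difference.

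**Figure D2:**
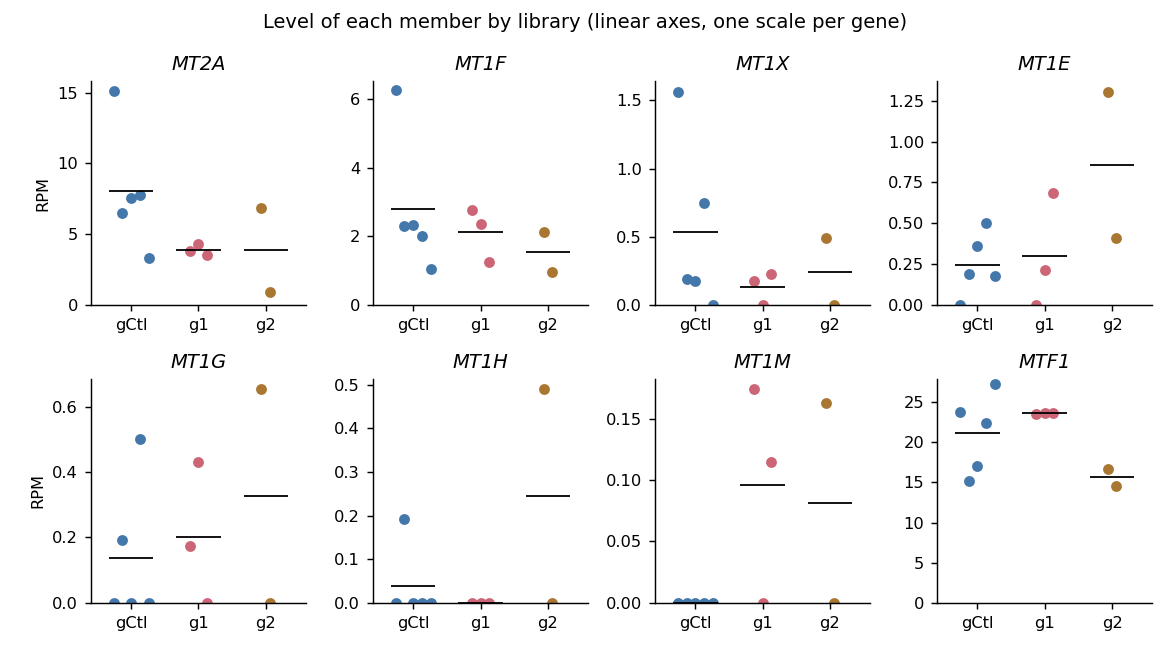
Level of each of the 8 genes in RPM (vertical axes, 1 scale per gene, starting at 0) in the libraries labelled gCtl, g1 and g2, with points for libraries and lines for group means. In MT2A, MT1F and MT1X the top point is gCtl replicate 1, in MT1E, MT1G and MT1H it is g2 replicate 1, and in all panels the guide-labelled points overlap with those of gCtl.

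MTF1, the zinc-sensing regulator of this family, differed little between the groups. It measured 23.8, 15.1, 17.1, 22.3 and 27.3 RPM in gCtl, 23.6, 23.6 and 23.7 RPM in the g1-labelled libraries, and 16.7 and 14.6 RPM in the g2-labelled ones, from 78.9 to 207 estimated counts per library. The g1 libraries were almost equal and inside the gCtl range, and g2 replicate 2 was just below it. The log2 fold change was 0.03 (SE 0.19, adjusted p = 0.919, edgeR) for both guides together, 0.20 (SE 0.20, adjusted p = 0.529, edgeR) for g1 and -0.25 (SE 0.24, adjusted p = 0.458, edgeR) for g2. The sign for both guides together turned under other scalings, to -0.05 with library totals and -0.11 with the length trend removed. Every g2 library lay below every g1 library, an order that so few libraries can take by chance. The fitted difference of g2 from g1 was -0.44 (SE 0.25, adjusted p = 0.333, edgeR) and did not pass. All MTF1 counts were assigned to its 7972-base coding transcript.

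Over these comparisons, 0 of the 2 tested members were called. Over all genes tested, edgeR called 19.2% with both guides together, 16.8% with g1, 23.7% with g2 and 4.55% for g2 against g1, so a count of 0 of 2 cannot be told apart from the background. At an unadjusted p under 0.05 the count was 1 of 2 (MT2A) with both guides together and 0 of 2 in the other comparisons. Over all 11640 genes tested, 2757 had an adjusted p of at most 0.05 with both guides together at any fold (edgeR). At least as many were thus under 0.05 unadjusted, so 1 of 2 cannot be told apart from the background either. DESeq2 and limma called 0 of 2 members in each comparison, beside 2426 and 2246 of all tested genes with both guides together.

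Per transcript length, the order of the levels in gCtl was MT2A (20.3 TPM ± 11.4, SD, n = 5), MT1F (6.99 ± 5.57), MTF1 (3.395 ± 0.81), MT1X (1.26 ± 1.53), MT1E (0.73 ± 0.58), MT1G (0.44 ± 0.70), MT1H (0.12 ± 0.27) and MT1M at 0. MT1F and MTF1 differed by less than their spread, as did each pair of neighbours from MT1X downward. The TPM values were computed here, and because the reads come from the 3' end, a long transcript such as that of MTF1 is placed lower in TPM than in RPM. In RPM, MTF1 stood above MT2A in every library.

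The metallothioneins are similar in sequence, and the sum over the 7 genes does not change if reads move among them. The sum was 22.9, 9.58, 10.5, 11.5 and 4.58 RPM in gCtl, 7.12, 7.31 and 5.84 RPM in the g1-labelled libraries, and 12.1 and 2.32 RPM in the g2-labelled ones. In gCtl it averaged 11.8 RPM ± 6.76 (SD, n = 5), and with a guide 6.93 RPM ± 3.50 (SD, n = 5), a difference of -4.88 RPM that was -2.10 RPM without gCtl replicate 1. The ranges overlapped, since g2 replicate 1 exceeded every gCtl library but 1 and gCtl replicate 5 was below every g1 library. Without MT2A, the sum of the 6 MT1 genes was 3.75 RPM ± 2.45 (SD, n = 5) against 3.04 RPM ± 1.43 (SD, n = 5). Of the summed counts, MT2A made up 68.7% in gCtl (184 of 268), 57.9% in g1 (73 of 126) and 53.8% in g2 (49 of 91). These values are given without a test, since the genes of the sum were chosen together.

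**Figure D3:**
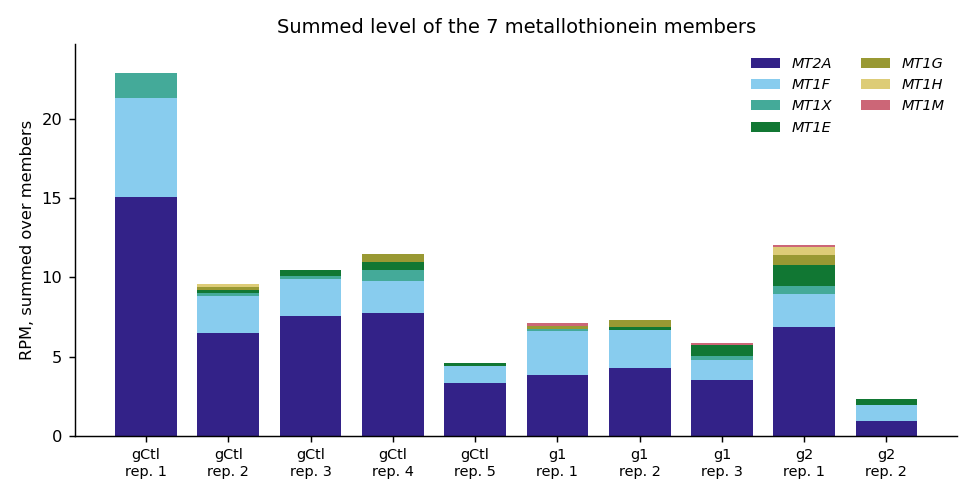
Summed level of the 7 metallothionein genes in RPM (vertical axis, from 0) in each of the 10 libraries, with 1 colour per gene. MT2A is the largest share of each bar except that of g2 replicate 2, where MT2A and MT1F hold 7 counts each, and the bars run from 2.32 RPM (g2 replicate 2) to 22.9 RPM (gCtl replicate 1).

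The sequence shared among the genes was measured in 31-base words, the length of word commonly used by Kallisto. In the last 200 bases of the transcript with most counts, where the reads of these libraries fall, 11.8% of the words of MT2A and 1.2% of those of MT1F were also found in another gene, against 0% for MT1X and MTF1. The share was 18.2% for MT1E, 20.6% for MT1G, 22.4% for MT1H and 41.8% for MT1M. The 3 least counted members thus shared the most, and MT1M shared its words with MT1E and the pseudogene MT1JP. The gene sums of all 7 metallothioneins were whole numbers in 10 of 10 libraries (within 0.001), whereas those of MTF1 were whole in 0 of 10. No fraction of a read divided between genes was thus seen for the metallothioneins. Whole numbers also result when all shared reads are assigned to 1 gene, so they do not show that shared reads were placed correctly.

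**Figure D4:**
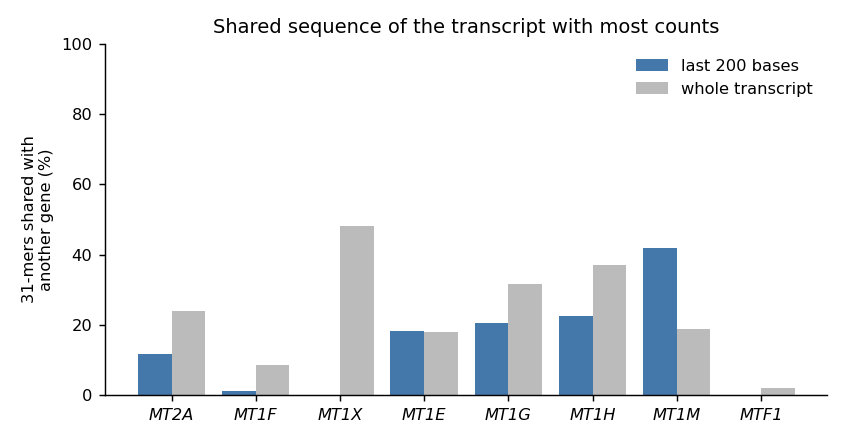
Percent of the 31-base words of each gene's most counted transcript that also occur in another gene (vertical axis, 0 to 100), for its last 200 bases (blue) and for the whole transcript (grey). MT1X has 48.1% shared words in the whole transcript and 0% in its last 200 bases, while MT1M has the highest share at the 3' end, 41.8%.

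The rest of the family was nearly silent. Of 13 further metallothionein genes and pseudogenes in the tables, 9 held 0 counts in all 10 libraries, among them the brain metallothionein MT3 and the epithelial MT4. The pseudogene MT1XP1 held 1 count in each of 3 gCtl libraries, MT1A and MT1L held 1 count each in g1 replicate 3, and MT1B held 1 in g2 replicate 1. Adding them changed the summed level from 11.8 to 11.9 RPM in gCtl and from 6.93 to 7.01 RPM in the guide-labelled libraries.

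Genes that move zinc did not change together. In the comparison of both guides with gCtl, 0 of 8 tested zinc exporters (SLC30 family, median log2 fold change 0.11) and 4 of 11 tested importers (SLC39 family, median -0.39) were called, beside a median of 0.02 over all genes tested and 19.2% of genes called. With g2 alone, 2 of the 8 exporters were called higher, SLC30A4 (1.2, SE 0.25, adjusted p = 0.00344, edgeR) and SLC30A5 (0.84, SE 0.29, adjusted p = 0.0429, edgeR), beside 23.7% of all tested genes. SLC30A5 was also called for g2 against g1 (1.52, SE 0.33, adjusted p = 0.0158, edgeR), with -0.67 (SE 0.28, adjusted p = 0.108, edgeR) for g1 against gCtl. SLC30A1, the exporter of the plasma membrane that MTF1 is known to switch on with the metallothioneins, had a log2 fold change of -0.50 (SE 0.21, adjusted p = 0.101, edgeR) and is, like SLC30A4 and SLC30A5, named here after its value was seen. Of the importers, SLC39A4, which takes up dietary zinc at the apical membrane, rose from 31.4 CPM ± 9.80 (SD, n = 5) to 76.8 CPM ± 28.5 (SD, n = 5), a log2 fold change of 1.30 (SE 0.26, adjusted p = 0.00288, edgeR), with g2 replicate 1 at 39.1 CPM below gCtl replicate 1 at 46.9 CPM. SLC39A1, an importer of the cell surface, fell from 37.2 CPM ± 15.2 (SD, n = 5) to 13.8 CPM ± 2.14 (SD, n = 5), a log2 fold change of -1.42 (SE 0.28, adjusted p = 0.00288, edgeR), with gCtl replicate 5 at 13.6 CPM inside the range of the other group. SLC39A11 (-1.02, SE 0.30) and SLC39A13 (-1.26, SE 0.43), which were low, also fell (adjusted p = 0.0232 and 0.0427, edgeR). The call of SLC39A11 was lost without gCtl replicate 1, gCtl replicate 2 or g1 replicate 3, where the log2 fold change was -0.90 to -0.96. That of SLC39A13 was lost without gCtl replicate 1, 2, 3 or 4, g1 replicate 1 or 2, or g2 replicate 2, each in turn (range over all libraries left out -1.48 to -0.97). With g1 alone, 3 of the 11 importers were called lower (SLC39A1, SLC39A11, SLC39A14) and 1 higher (SLC39A4), beside 16.8% of all tested genes. With g2 alone, 3 were called lower (SLC39A1, SLC39A5, SLC39A6) and 2 higher (SLC39A4, SLC39A7), beside 23.7%. SLC39A13 was called with neither guide alone. SLC39A5, SLC39A6, SLC39A7 and SLC39A14 are named after their values were seen.

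Copper genes were tested because metallothioneins also hold copper, and 4 of 14 were called with both guides together (median log2 fold change 0.23), beside 19.2% of all tested genes and their median of 0.02. COX17, which carries copper to cytochrome oxidase, fell with no overlap between groups, from 94.3 CPM ± 33.2 (SD, n = 5) to 38.4 CPM ± 8.52 (SD, n = 5), a log2 fold change of -1.29 (SE 0.24, adjusted p = 0.00169, edgeR). The copper importer SLC31A1 rose by 0.65 on the log2 scale (SE 0.14, adjusted p = 0.00420, edgeR) from 62.6 to 98.6 CPM, and SLC31A2 by 1.21 (SE 0.32, adjusted p = 0.0136, edgeR) from 5.86 to 13.6 CPM. COMMD1, which takes part in copper export, rose by 0.62 (SE 0.14, adjusted p = 0.00721, edgeR) from 29.8 to 45.7 CPM. SLC31A1 and COMMD1 were near the minimum fold, and the calls were lost when the counts were scaled by library totals (0.56 and 0.53) and, for SLC31A1, without g2 replicate 2 (0.56), and for COMMD1, without g1 replicate 1 (0.58) or g1 replicate 3 (0.57). With g1 alone, 1 copper gene was called lower (COX17) and 1 higher (COMMD1), beside 16.8% of all tested genes. With g2 alone, 2 were called lower (COX17, SCO2) and 4 higher (ATP7A, COX11, SLC31A1, SLC31A2), beside 23.7%. For g2 against g1, COX11 was called higher and SOD1 lower, beside 4.55%. ATP7A had a log2 fold change of -0.26 (SE 0.36) with g1 and 1.19 (SE 0.37) with g2. SCO2, ATP7A, COX11 and SOD1 are named after their values were seen.

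Genes that answer the signals known to induce metallothioneins are given beside the 19.2% of all tested genes that were called with both guides together. Of 12 tested genes of the metal and oxidant stress response, 1 was called in that comparison, GCLC, the catalytic subunit of the enzyme that starts glutathione synthesis. It rose with no overlap from 15.9 CPM ± 3.25 (SD, n = 5) to 30.2 CPM ± 7.34 (SD, n = 5), a log2 fold change of 0.93 (SE 0.21, adjusted p = 0.00540, edgeR). HSF1 (-0.55), NFE2L2 (0.46) and TXNRD1 (0.44) were below the minimum fold, with adjusted p = 0.0289, 0.0269 and 0.0328 (edgeR). With g2 alone, GCLC and NFE2L2 (0.60, SE 0.165, adjusted p = 0.0149, edgeR) were called higher, beside 23.7% of all tested genes. HSF1, NFE2L2 and TXNRD1 are named after their values were seen. Of 12 listed glucocorticoid responders, 4 were tested and 1 was called with both guides together. This was FKBP5, a co-chaperone of the glucocorticoid receptor, which fell from 54.1 CPM ± 6.75 (SD, n = 5) to 31.4 CPM ± 3.94 (SD, n = 5), a log2 fold change of -0.79 (SE 0.14, adjusted p = 0.00173, edgeR). The others tested were not called with both guides together, and their signs differed: NR3C1 (-0.41, SE 0.36), ERRFI1 (0.55, SE 0.37) and SGK1 (0.06, SE 0.23), with adjusted p = 0.431, 0.301 and 0.863 (edgeR). The receptor NR3C1, named after its value was seen, differed between the guides, with -1.61 (SE 0.37, adjusted p = 0.00528, edgeR) for g2, 0.05 (SE 0.27, adjusted p = 0.922, edgeR) for g1 and -1.66 (SE 0.38, adjusted p = 0.0233, edgeR) for g2 against g1. Of 8 genes that supply cysteine and glutathione, the pair called with both guides together encode chains of the cystine importer and moved in opposite directions. With g2 alone, 3 of the 8 were called lower and 1 higher (SLC7A11), beside 23.7% of all tested genes. The lower ones were SLC3A2, CBS (-2.80, SE 0.91, adjusted p = 0.0328, edgeR) and GSS (-0.72, SE 0.17, adjusted p = 0.00664, edgeR). CBS and GSS are named after their values were seen. With both guides together, the heavy chain SLC3A2 fell from 162 CPM ± 29.6 (SD, n = 5) to 77.9 CPM ± 11.02 (SD, n = 5), a log2 fold change of -1.06 (SE 0.15, adjusted p = 0.000372, edgeR), and the light chain SLC7A11 rose from 15.8 CPM ± 3.24 (SD, n = 5) to 30.9 CPM ± 9.09 (SD, n = 5), a log2 fold change of 0.97 (SE 0.22, adjusted p = 0.00623, edgeR).

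**Figure D5:**
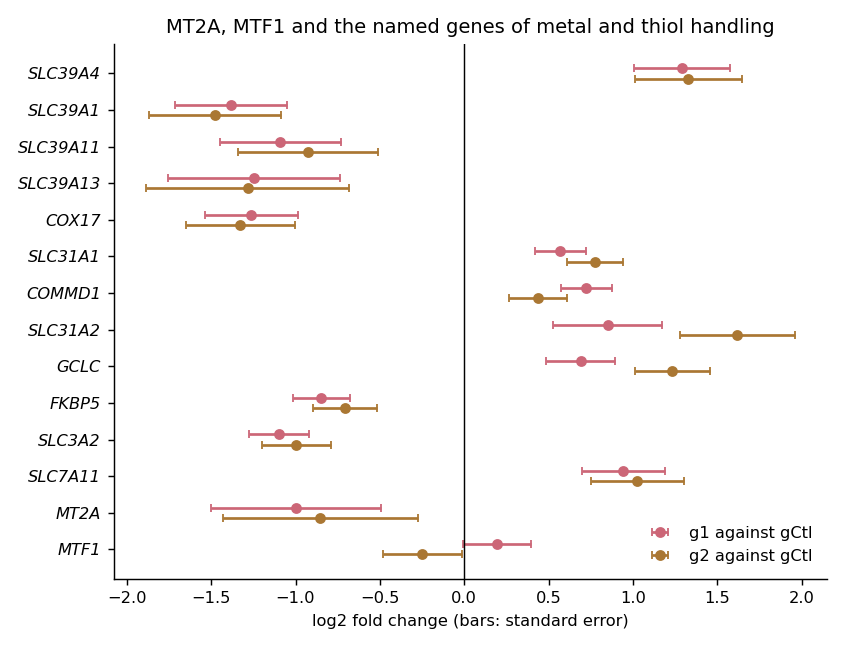
Log2 fold change of g1 and of g2 against gCtl (horizontal axis, bars for the standard error) for the named genes of metal and thiol handling and for MT2A and MTF1 (vertical axis). Apart from MT2A and MTF1, the genes are shown because they were called with both guides pooled, which favours a shared sign. Both guides give the same sign for every gene but MTF1 and share the gCtl libraries. Some genes of the lists that are not shown, such as SLC30A5, ATP7A and NR3C1, differed in sign between the guides. The bars of MT2A are wider than those of all genes shown but SLC39A13.

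The tested genes whose levels across the 10 libraries were most like those of MT2A were ORMDL1 (Pearson r = 0.967 on log2(CPM + 1)), EREG (r = 0.963), ERP44 (r = 0.962), FH (r = 0.959) and DNAJC19 (r = 0.959). With the mean of each group taken off, they were REXO2 (r = 0.99), APOOL (r = 0.986), COX7A2L (r = 0.973), RAP1A (r = 0.973) and NDUFA4 (r = 0.967), so these r describe differences between libraries of the same group. MTF1 had r = 0.045 with MT2A across the libraries and 0.044 with group means taken off. These are descriptions across 10 libraries that share their scaling, selected as the highest of 11640 genes, and carry no test.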

How the data were processed

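Each of the 10 QuantSeq libraries was given as 1 table of estimated counts per transcript, which the authors deposited as made by Kallisto (version 42.5 per the labels' processing notes) without normalization. Estimated counts were summed here over the transcripts of each Ensembl gene ID, and the members were then found by gene symbol. RPM was taken over all counts of a library, TPM was computed from annotated transcript lengths, and CPM used TMM-scaled totals of the tested genes.

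Tests covered protein-coding genes that exceeded 3 RPM in 20% or more of the libraries, on sums rounded to whole numbers, with edgeR 4.0.16 (glmQLFit and glmQLFTest) in R 4.3.3 and Benjamini-Hochberg adjustment over the whole set. Both guides pooled were set against gCtl, and a fit with 3 groups compared each guide with gCtl and with the other. Genes below the filter were compared by exact permutation tests (scipy 1.17.1, pseudocount 1). DESeq2 1.42.0, limma 3.58.1, other scalings and filters, removal of a length trend and leaving out each library were alternatives. The programs were tested on simulated data.

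Named genes are the 8 members, up to 6 called genes of each list and the 5 genes most like MT2A by each measure. The members and lists were chosen with earlier results of these data known. Promoters came from RefSeq (GRCh38.p14) and gene positions from GENCODE on GRCh38. Within groups, all 14 library pairs differed beyond counting noise (chi-square per degree of freedom 4.78 to 29.9).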

Additional observations from a re-analysis of the deposited data

Results flagged for a closer look

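A library far from the others of its group was seen in 6 of 41 groups of values examined, where chance gives about 1 in 20 for values that are not mostly 0. MT1F stood at 6.25 RPM in gCtl replicate 1, with a gap to the next library of 0.752 of the group's range. MT1H stood at 0.192 RPM in gCtl replicate 2 (1 count) and at 0.489 RPM in g2 replicate 1 (3 counts), where the rest of each group was at 0, so that any count would stand apart. Among the genes of the lists, SLC39A13 stood at 7.89 CPM in gCtl replicate 3, COMMD1 at 34.3 CPM in gCtl replicate 5 and FKBP5 at 65.5 CPM in gCtl replicate 5.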

How the results depend on the processing

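No paired analysis was possible because the labels carry no replicate numbers. The number of members called was 0 under each alternative, except 1 (MT2A) without g2 replicate 1, both for the guides together and for g2 (range 0 to 1). MT2A turned to 0.81 (both guides), 0.92 (g1) and 0.63 (g2) relative to GAPDH, and g2 gave -2.89 without g2 replicate 1 and 0.004 without g2 replicate 2. MT2A in g2 against g1 turned to -0.019 with library totals, -0.32 with limma, -0.29 relative to GAPDH and -1.90 without g2 replicate 1 (-1.90 to 0.98 over the libraries left out). MTF1 for both guides turned to -0.046 with library totals, -0.043 with limma, -0.007 with all biotypes and -0.11 with the length trend removed (-0.067 to 0.159 over the libraries left out), and relative to GAPDH it was 1.66 for both guides, 1.88 for g1 and 1.33 for g2. MT1H ranged from -0.051 (without g2 replicate 1) to 0.12.

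Genes called for both guides, g1, g2 and g2 against g1 numbered 493, 512, 796 and 89 with glmTreat and its minimum fold of 1.5, and DESeq2 called 841 for g2 against g1, beside 2236, 1955, 2760 and 530. Leaving out 1 library gave 1719 to 2431, 1262 to 2266, 1504 to 3123 and 243 to 865. Library totals put 69.4% of the calls for both guides on the lower side and limma 71.9%, beside 57.8%, and moved the median of g2 over all genes from 0.03 to -0.16. Of the genes named from the lists, glmTreat called SLC39A4, SLC39A1, COX17 and SLC3A2 and none of the others. SLC39A13 was also not called with no filter, with all biotypes or with the length trend removed, SLC31A1 with limma or the length trend removed, and COMMD1 with limma or all biotypes. The cause of these shifts was not tested. At these depths, 6 of the 8 members stayed below the filter.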
